A study of Mus musculus with 8 samples.

Results

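The SLAM family receptors and their adaptor SAP were followed in invariant natural killer T (iNKT) cells of the skin and the spleen. The group was chosen by name and holds 8 of the 22549 genes in the deposited table: the receptor genes Slamf1, Slamf6, Slamf7, Cd244, Ly9, Cd48 and Cd84, and Sh2d1a, which encodes SAP. The 8 libraries, 4 of iNKT cells from skin and 4 of iNKT cells from spleen, came from mice of the genotype CCR10+/EGFP, which carry EGFP at one allele of the Ccr10 locus, and the study set the transcriptome of the skin cells against that of the spleen cells. The labels give no age, sex, treatment or sorting gate, and do not say that the numbered libraries came from separate animals, so p-values reflect the variation among these libraries, part of which may be technical. RNA was amplified from small inputs as full-length cDNA, and the values are expected counts, given here as CPM, counts scaled to the same library total.

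SLAM receptors are surface proteins of blood cells, and most bind their own kind on a neighbouring cell. iNKT cells are selected in the thymus by other thymocytes that present CD1d, and contacts through Slamf1 and Slamf6 supply the second signal of that selection. SAP, a small adaptor made of a single SH2 domain, binds switch motifs in the receptor tails and brings in the kinase Fyn, while the phosphatases SHP-1, SHP-2 and SHIP-1 compete for the same motifs. Mice and people without SAP have almost no iNKT cells.

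Of the 8 members, the 7 receptor genes lie together on chromosome 1, within a stretch of 8 protein-coding genes from Cd244 to Slamf6 in RefSeq's GRCm38.p6 order, and Sh2d1a is on the X chromosome. RefSeq promoters were matched for 6 of the 8 members. The 4 below belong to receptors with a level above 75 CPM in every spleen library, and are shown because Slamf6 had no count in skin, Slamf7 and Cd84 stood lower there without overlap, and the tissues overlapped for Cd48. Each is the 250 bases before the start of transcription, 5′ to 3′, on GRCm38.p6, a later build than the mm9 named for the counts. Capitals mark matches on either strand to any of 7 motifs. These were CCGGAA for the ETS factors, TGTGGT for the RUNX factors, CTTTGA for the TCF and LEF factors, TGANTCA for the AP-1 factors, CAGNTG for the E-box factors, GGGCGG for the SP and KLF factors, and TATAAA for the TATA box.
Slamf6, chr1:171917212-171917461, plus strand: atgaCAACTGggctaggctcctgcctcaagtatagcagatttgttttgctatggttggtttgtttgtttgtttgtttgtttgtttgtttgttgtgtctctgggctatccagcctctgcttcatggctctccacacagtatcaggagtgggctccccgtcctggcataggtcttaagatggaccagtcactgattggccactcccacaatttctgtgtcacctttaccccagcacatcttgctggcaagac
Slamf7, chr1:171649000-171649249, minus strand: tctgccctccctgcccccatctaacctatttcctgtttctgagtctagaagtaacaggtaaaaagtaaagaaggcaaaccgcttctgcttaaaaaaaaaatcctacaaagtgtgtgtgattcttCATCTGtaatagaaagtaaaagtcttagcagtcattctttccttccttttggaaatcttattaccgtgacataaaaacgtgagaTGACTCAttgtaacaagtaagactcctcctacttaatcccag
Cd84, chr1:171839447-171839696, plus strand: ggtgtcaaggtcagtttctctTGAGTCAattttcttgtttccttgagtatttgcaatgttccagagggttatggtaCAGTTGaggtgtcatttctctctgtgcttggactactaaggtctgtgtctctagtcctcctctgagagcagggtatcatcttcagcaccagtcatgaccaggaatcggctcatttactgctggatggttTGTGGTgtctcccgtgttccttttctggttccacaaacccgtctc
Cd48, chr1:171681742-171681991, plus strand: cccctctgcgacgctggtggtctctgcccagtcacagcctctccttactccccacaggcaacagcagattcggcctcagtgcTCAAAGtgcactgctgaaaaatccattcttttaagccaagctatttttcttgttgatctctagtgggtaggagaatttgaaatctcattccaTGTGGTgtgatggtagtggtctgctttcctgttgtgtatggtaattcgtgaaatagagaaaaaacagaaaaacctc
Among the 6 matched promoters, 5 held the E-box letters, which stood in 44.8% of the 32851 promoters of this length, and 3 held the AP-1 letters, which stood in 6.75%. The E-box letters were missing in Cd48 and present in the other matched promoters, among them Cd244, which had no count in either tissue. The motifs were chosen after the values were seen, and a link to level was not tested. The RUNX letters stood in 2 of the 6 (14% of all promoters) and the TCF/LEF letters in 1 (13.8%). The ETS, SP/KLF and TATA letters were in none of the 6 windows, against 12%, 32.7% and 12.4% of all promoters. These are matches of letters and not binding sites.

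The libraries held 7191120 to 9792000 counts, and 3 counts, taken as the floor below which a gene is not resolved, correspond to 0.292 to 0.454 CPM (counting error only, since the reads carry no molecular identifiers). Skin libraries detected fewer genes: 5302 to 6012 against 6415 to 10094 in spleen, a two-sided difference at the smallest p that an exact permutation of 4 against 4 can give (p = 0.0286). The labelled cell type was checked on 8 T cell and iNKT genes. All 8 (Cd3e, Cd3d, Cd3g, Cd247, Zbtb16, Thy1, Il2rb and Cxcr6) had counts in both tissues, and they summed to 5145 to 7701 CPM per skin library against 5656 to 7757 CPM per spleen library. Cxcr6 made up the largest part of these sums. Within the list Cd3d, a chain of the CD3 complex, was lower in skin without overlap (470 ± 83.9 against 1112 ± 226 CPM; adjusted p by edgeR = 0.025). That call was lost without skin replicates 1 or 3 or spleen replicates 2, 3 or 4 (edgeR adjusted p = 0.0518 to 0.11). It was also lost with the replicate number as a block (edgeR adjusted p = 0.116). Cd3g was lower without overlap and not called (1032 ± 42.1 against 1273 ± 113 CPM), and the tissues overlapped for the other 6. Some markers of other cells moved with tissue. The 8 keratinocyte markers summed to 181 to 764 CPM in skin and 0 to 29.5 CPM in spleen, and the 3 red cell genes to 0 to 0.424 CPM in skin and 111 to 228 CPM in spleen. B cells carry several SLAM receptors. Of 6 matched B cell markers 5 had a count, their sum ran from 16.3 to 195 CPM in skin and 31.5 to 361 CPM in spleen, and all but Cd74 stood at 0 in every skin library. The 6 dendritic cell markers summed to 140 to 212 CPM in skin and 21.7 to 187 CPM in spleen. Of these Xcr1 was higher in skin without overlap and not called (122 ± 34.6 against 13.3 ± 16.6 CPM; adjusted p by edgeR = 0.721). The rest of the list did not follow it. H2-Ab1 had the lower mean in skin, with overlap (46.9 ± 33.5 against 64.0 ± 83.1 CPM), and Itgax had a count in skin replicate 2 alone. Flt3, Zbtb46 and Cd207 were at 0 in all 8 libraries. Macrophage and monocyte markers summed to 0 to 52.2 CPM in skin and 0 to 48.5 CPM in spleen. NK cell markers summed to 0 to 47.8 and 0 to 1.17 CPM, and fibroblast markers to 0 to 31.9 and 0 CPM. Mast cell and platelet markers, 6 and 3 genes, were at 0 in all 8 libraries. The part of these other cells in the results was not tested.

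Slamf6 was the member called lower in skin. It encodes Ly108, one of the receptors of iNKT selection. Spleen replicates 1 to 4 stood at 217, 79.4, 236 and 242 CPM (2229, 697, 1653 and 1628 counts), and the 4 skin libraries had no count. The tissues did not overlap, with spleen replicate 2 the lowest of the spleen libraries. The level was 194 ± 76.8 CPM in spleen (SD, n = 4), against no count in skin (edgeR quasi-likelihood test, Benjamini-Hochberg adjusted p = 0.0197). By counts alone, skin was at least 499.9-fold lower against the floor of 3 counts per library. That bound leaves out the missing counts of skin libraries described below, so the difference in transcript level can be smaller. The call was lost without spleen replicate 1 (edgeR adjusted p = 0.0848), 3 (0.12) or 4 (0.105), and with the replicate number as a block (0.332). Skin held no count in any fit. Slamf6 passed the filter on low counts on its spleen libraries alone. Of all genes tested, 3.34% had no count in any skin library. In these bulk libraries fewer cells with a transcript and less transcript per cell cannot be told apart. Skin libraries also detected fewer genes, and the matched B cell markers other than Cd74 had no count there. The part of either in the Slamf6 values was not tested.

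Sh2d1a, the gene of SAP, stood at 181, 278, 290 and 213 CPM in spleen replicates 1 to 4. In skin it stood at 101 CPM in replicate 1 (669 counts) and had no count in the other 3 libraries. The highest skin value lay below the lowest spleen value. Means were 25.3 ± 50.6 CPM in skin and 241 ± 52.3 CPM in spleen, 9.50-fold apart, and the log2 fold change was -3.25 ± 2.41 (SE). The difference did not pass the test (edgeR adjusted p = 0.87), and its 95% interval ran from -8.71 to 2.21. Skin replicate 1 decided this: without it Sh2d1a had no count in skin and was called (edgeR adjusted p = 0.00746). It was also called by limma-voom with quality weights on all 8 libraries (adjusted p = 0.0338), the only call among 8 alternative settings. DESeq2 did not call it (adjusted p = 0.62). Of the 8 fits without a library, the one without skin replicate 1 was the only one that called it.

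Slamf7, the receptor CRACC of natural killer and cytotoxic T cells, and Cd84, a self-binding receptor of many lymphocytes, stood lower in skin without passing the test. Slamf7 was at 0, 33.1, 20.9 and 115 CPM in skin replicates 1 to 4 and at 305, 161, 142 and 179 CPM in spleen. Every skin library lay below every spleen library, and the fitted log2 fold change was -2.22 ± 1.53 (SE; adjusted p by edgeR = 0.813, 95% interval -5.68 to 1.25). Without skin replicate 4, the highest in skin, it was -3.48, and in limma-voom -4.46, and Slamf7 was called in neither. Cd84 stood at 134, 0.44, 83.2 and 116 CPM in skin and at 207, 243, 263 and 180 CPM in spleen. Skin replicate 2 was far below the other skin libraries, with 4 counts. Its log2 fold change was -1.42 ± 1.14 (SE; adjusted p by edgeR = 0.905), and without skin replicate 2 it was -1.05 (edgeR adjusted p = 0.277).

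**Figure D1:**
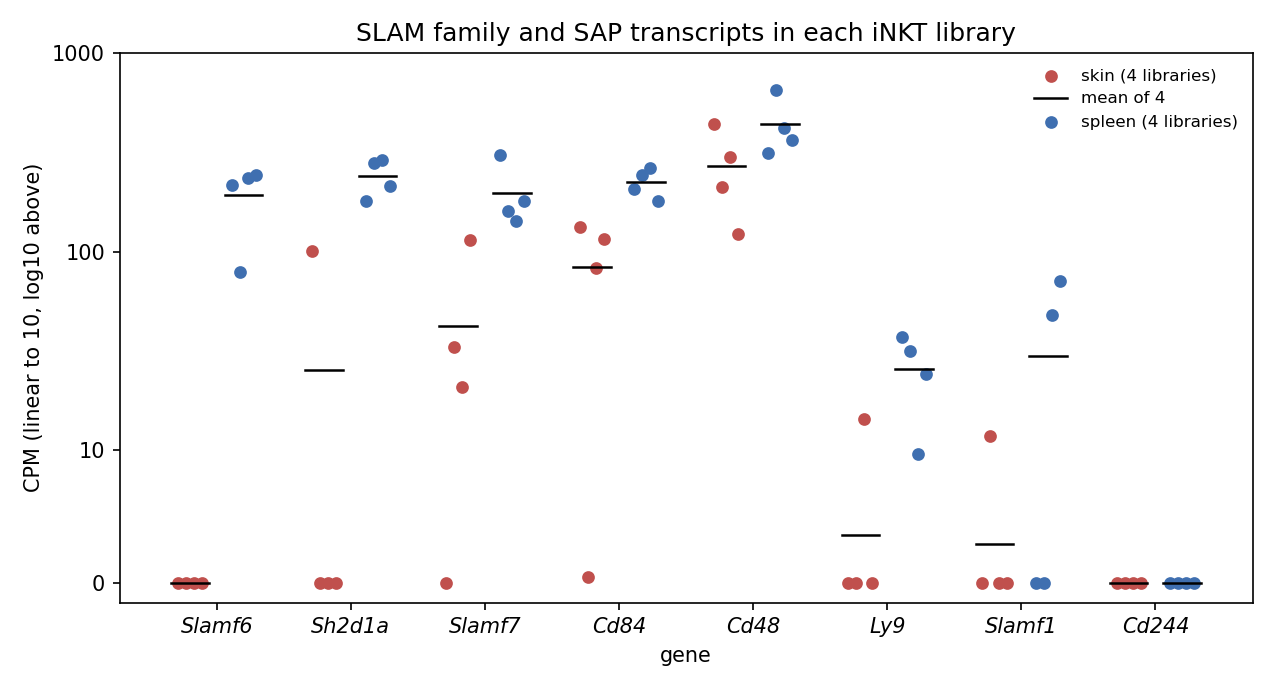
Level of each member (horizontal axis) in CPM (vertical axis, linear to 10 and log10 above) in the 4 skin and 4 spleen libraries, each point 1 library and each bar the mean of 4. Slamf6 stands at 0 in all skin libraries and at 79.4 to 242 CPM in spleen, and the Cd48 points of both tissues overlap.

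Cd48 had at least 869 counts in every library, and Cd84, with 4 counts in skin replicate 2, was the other member counted in all 8. Cd48 encodes a receptor held to the membrane by a lipid anchor, which binds CD2 and the receptor 2B4 on other cells. Skin replicates 1 to 4 stood at 440, 213, 299 and 123 CPM and spleen replicates at 313, 652, 417 and 366 CPM. The ranges overlapped, since skin replicate 1 lay above 3 of the 4 spleen libraries. The log2 fold change was -0.70 ± 0.43 (SE; adjusted p by edgeR = 0.719), and its 95% interval, -1.68 to 0.28, does not show that the tissues were alike.

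Ly9 and Slamf1 were scarce in both tissues. Ly9, a self-binding receptor of T and B cells, stood at 14.3 CPM in skin replicate 3 with no count in the other skin libraries, and at 37.3, 31.4, 9.69 and 24.1 CPM in spleen. The skin value lay within the spleen range (log2 fold change -2.83 ± 2.46, SE; adjusted p by edgeR = 0.938). That fit rested on skin replicate 3: without it Ly9 had no count in skin (edgeR adjusted p = 0.0888), and in limma-voom the log2 fold change was -6.03 (adjusted p = 0.0788). Slamf1, the self-binding receptor that gave the family its name, was counted in 3 libraries, at 11.8 CPM in skin replicate 2, 48.0 CPM in spleen replicate 3 and 71.1 CPM in spleen replicate 4. It did not pass the filter on low counts and was not tested. Cd244, the gene of 2B4, is listed at 0 in all 8 libraries. Slamf8 and Slamf9, which lie outside the cluster and lack the switch motif, are listed at 0 in all 8 too.

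Of the 8 members, 6 passed the filter on low counts, all but Cd48 on their spleen libraries, so the counts that follow describe these genes and support no direction. By edgeR 1 of the 6 was lower in skin, where 3.58% of the 6920 genes tested were lower, and 0 were higher, where 1.85% of all were. At an unadjusted p under 0.05 the counts were the same, 1 lower and 0 higher (7.33% and 5.1% of all). DESeq2 called 1 member lower and limma-voom 2, where they called 6.64% and 7.5% of all genes lower, and both called 0 higher. The tissues did not overlap for 4 of the 6, all lower in skin (13.4% of all genes tested were lower in this way and 6.11% higher), and the fitted log2 fold change was below 0 for 6 of 6 (57.8% of all). The median log2 fold change was -2.53 over the 6 and -0.29 over all genes tested.

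Each skin library held its own subset of the scarcer members. Cd48 and Cd84 were counted in all 4, Slamf7 in replicates 2, 3 and 4, and Sh2d1a, Slamf1 and Ly9 in a single library each, replicates 1, 2 and 3 in that order. The receptors with a count numbered 2, 4, 4 and 3 of 7 in skin replicates 1 to 4 and 5, 5, 6 and 6 in spleen. Over all genes tested, 67.4% to 73.9% had a count in a skin library and 77.6% to 99.2% in a spleen library. The 7 receptors include Cd244 and Slamf1, which were not tested, so their counts and these shares are not over like genes. The receptors tested, Cd48, Cd84, Ly9, Slamf6 and Slamf7, had a count in every spleen library.

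Among genes tested, a missing count in skin was related to the level of the gene. Where the other 3 skin libraries averaged 10 to 50 CPM, 41.9% of values in the fourth were 0, and at 100 to 200 CPM 14.7% were. In spleen the shares were 17.3% and 5.2%. Among the 1384 genes tested with a spleen mean of 100 to 200 CPM, the band of Slamf6, 32 (2.31%) had no count in any skin library. Among the 642 with 200 to 400 CPM in spleen, the band of Sh2d1a and Cd84, 26 (4.05%) stood at 0 in at least 3 skin libraries, as Sh2d1a did. At 10 to 50 CPM in spleen, the band of Ly9, this share was 24.3%.

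**Figure D2:**
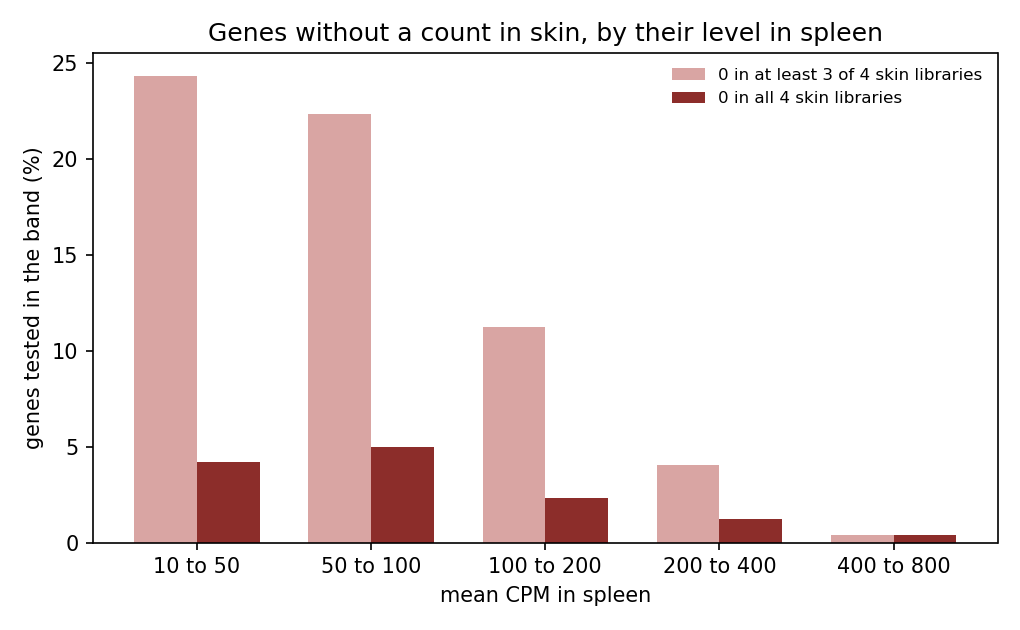
Share of genes tested (vertical axis, percent) with no count in at least 3 or in all 4 skin libraries, by band of mean spleen level in CPM (horizontal axis). The share at 0 in at least 3 skin libraries is 24.3% at 10 to 50 CPM in spleen and 4.05% at 200 to 400 CPM.

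To set the members against each other, CPM were divided by the longest annotated coding length, from 378 bases for Sh2d1a to 1962 for Ly9. On this scale (CPM per kb of coding length) the levels in spleen were 636 ± 138 for Sh2d1a, 607 ± 208 for Cd48, 226 ± 37.5 for Cd84, 196 ± 73.4 for Slamf7, 184 ± 72.96 for Slamf6, 28.9 ± 34.6 for Slamf1 and 13.1 ± 6.08 for Ly9 (SD, n = 4 each). The spleen libraries of Sh2d1a and Cd48 overlapped, as did those of Cd84, Slamf7 and Slamf6, and those of Slamf1 and Ly9. Between these 3 sets the ranges per kb of coding length did not overlap. The sets depend on the length used, and the longest transcripts run from 1186 bases for Cd48 to 5729 for Slamf6. In skin the order per kb was Cd48 (373 ± 187), Cd84 (84.4 ± 59.8), Sh2d1a (67.0 ± 134), Slamf7 (42.1 ± 50.2), Slamf1 (2.86 ± 5.72) and Ly9 (1.82 ± 3.64), with Slamf6 at 0. Cd48 stood above every other member in each skin library, and the ranges of its neighbours below it overlapped each other.

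The receptor transcripts of skin thus summed to 340 to 746 CPM per kb of coding length per library, and those of spleen to 1172 to 1404. Cd48 made up 81.9%, 86.8%, 78.7% and 42.4% of the sum in skin replicates 1 to 4 and 37.0%, 64.5%, 45.9% and 43.0% in spleen. These shares, too, depend on the use of coding length. The shares overlapped, since skin replicate 4 lay within the spleen range and the other 3 above it.

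**Figure D3:**
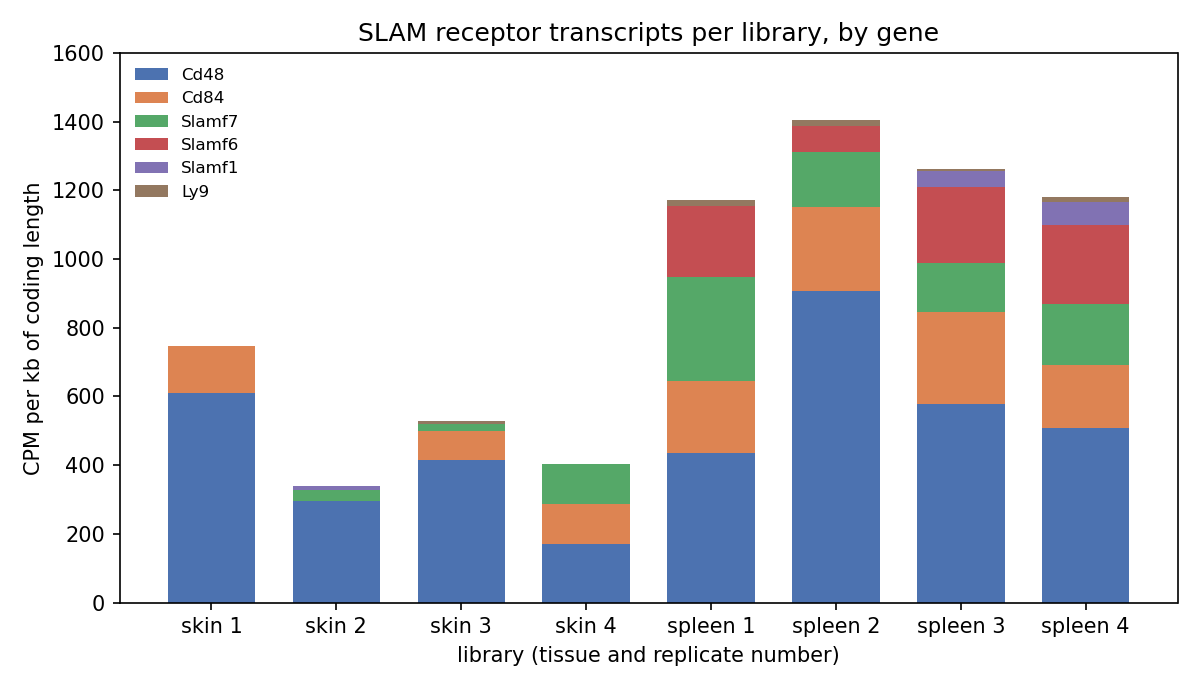
SLAM receptor transcripts in each library (horizontal axis), stacked by gene in CPM per kb of coding length (vertical axis). Skin libraries reach 340 to 746 and spleen libraries 1172 to 1404, and Cd48 is present in all 8.

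The genes that signal with SLAM receptors were read from a list of 26, which holds adaptors, kinases, phosphatases, the ligand Cd2 and the other family genes. Of these 20 had a count and 18 were tested. By edgeR 1 was lower in skin and 0 were higher, where 3.58% and 1.85% of all genes tested were. At an unadjusted p under 0.05, 3 were lower and 0 higher (7.33% and 5.1% of all). The median log2 fold change was -0.39, against -0.29 over all genes tested, with 11 of the 18 below 0 (57.8% of all).

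Ptpn6, the gene of the phosphatase SHP-1, was the one called lower in skin. It stood at 145, 177, 219 and 155 CPM in skin replicates 1 to 4 and at 356, 756, 580 and 830 CPM in spleen. The tissues did not overlap, and the log2 fold change was -1.86 ± 0.33 (SE; adjusted p by edgeR = 0.0247). The call was lost without skin replicates 1 or 2 or spleen replicates 2, 3 or 4 (edgeR adjusted p = 0.0562 to 0.098). It was also lost with the replicate number as a block (edgeR adjusted p = 0.125) and in limma-voom (adjusted p = 0.0876). The log2 fold change was -2.06 to -1.70 whichever library was left out. Ptpn11, the gene of SHP-2, stood at 3.18 CPM in skin replicate 3 with no count in the other skin libraries, and at 19.6, 79.0, 16.2 and 0.892 CPM in spleen (edgeR adjusted p = 0.549). Inpp5d, the gene of the lipid phosphatase SHIP-1, averaged 152 ± 73.4 CPM in skin against 133 ± 33.8 CPM in spleen (SD, n = 4 each), and the tissues overlapped.

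Fyn, the kinase that SAP brings to the receptors, was at 348, 547, 707 and 592 CPM in skin replicates 1 to 4 and at 528, 407, 584 and 649 CPM in spleen. The tissues overlapped, and the log2 fold change of 0.02 ± 0.27 (SE; adjusted p by edgeR = 0.999) had a 95% interval of -0.60 to 0.63. The kinase Lck stood at 511, 737, 773 and 1540 CPM in skin and at 1068, 2678, 2193 and 2204 CPM in spleen. Skin replicate 4 lay above spleen replicate 1, and the difference did not pass the test (log2 fold change -1.19 ± 0.38, SE; adjusted p by edgeR = 0.149), though it did without skin replicate 4 (edgeR adjusted p = 0.0477). The adaptor Dok2, named after its values were seen as the third gene with an unadjusted p under 0.05, stood at 112, 799, 125 and 137 CPM in skin and at 1070, 894, 651 and 951 CPM in spleen (edgeR adjusted p = 0.334). Without skin replicate 2 it was called (edgeR adjusted p = 0.00381).

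Prkcq, the gene of protein kinase C theta, averaged 201 ± 142 CPM in skin against 325 ± 133 CPM in spleen (SD, n = 4 each), with overlap. Sh2d1b1 and Sh2d1b2, the genes of the related adaptors EAT-2 and ERT, are listed at 0 in all 8 libraries. Cd2, the T cell receptor for Cd48, stood at 547, 656, 358 and 492 CPM in skin and at 345, 329, 581 and 431 CPM in spleen. The tissues overlapped (log2 fold change 0.28 ± 0.29, SE; adjusted p by edgeR = 0.995; 95% interval -0.36 to 0.93).

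**Figure D4:**
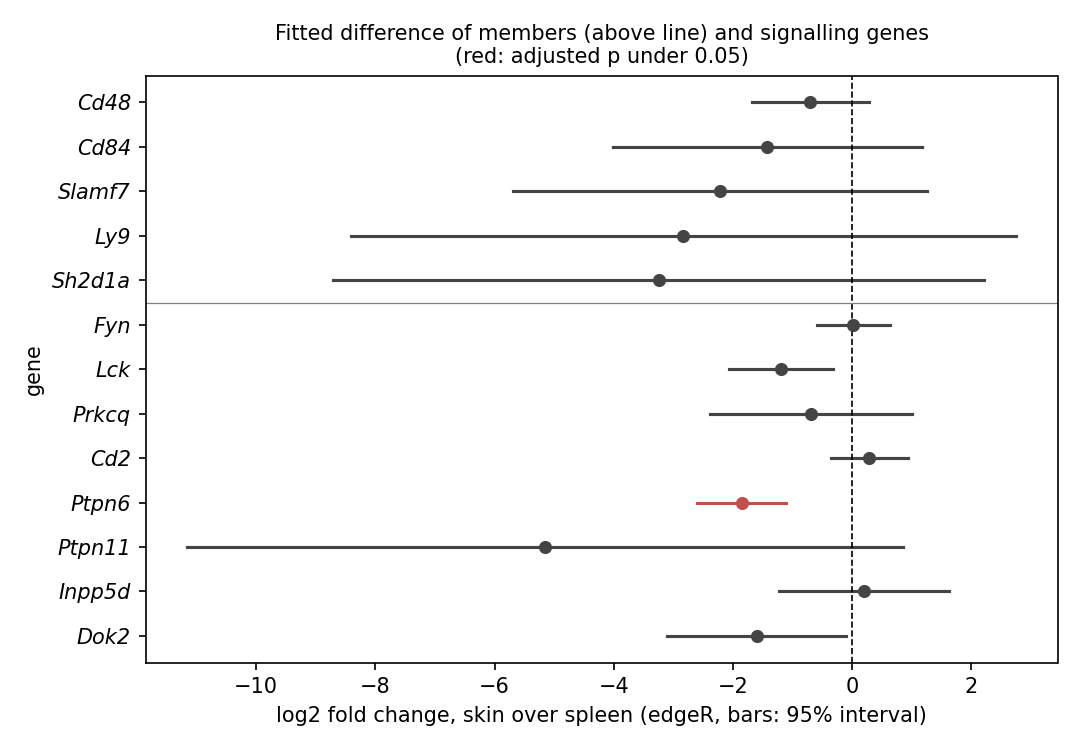
Fitted log2 fold change of skin over spleen (horizontal axis) with its 95% interval for 5 tested members, above the line, and for 8 signalling genes, below it. Slamf6 is left out because a fold against no count has no interval. The intervals of the 5 members include 0, and that of Ptpn6, in red, runs from -2.60 to -1.12.

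The genes beside the receptor cluster were read in the same way. Of 24 fixed neighbours, 1 to 18 protein-coding genes away from the cluster, 19 had a count and 13 were tested. By edgeR 1 was lower in skin, Usp21, which encodes a deubiquitinating enzyme, and 0 were higher. Of all genes tested 3.58% were lower and 1.85% higher. The median log2 fold change of the neighbours was -0.56 (-0.29 over all genes tested), with 8 of 13 below 0 (57.8% of all). Usp21 passed the filter on its spleen libraries alone. Usp21 stood at 19.7, 97.8, 55.9 and 77.0 CPM in spleen with no count in skin (edgeR adjusted p = 0.0473). Skin was at least 161.69-fold lower against the floor, a bound on counts alone that leaves out the missing counts of skin libraries described above. Usp21 lost its call in each fit that left out 1 library (edgeR adjusted p = 0.0775 to 0.137). It also lost it with the replicate number as a block (edgeR adjusted p = 0.355) and without the filter (0.136). Fcer1g, the gene of the Fc receptor gamma chain, stood at 354, 251, 324 and 175 CPM in skin and at 25.7, 108, 48.0 and 42.1 CPM in spleen. The tissues did not overlap, with skin the higher. It had the single unadjusted p under 0.05 among neighbours on the higher side (edgeR adjusted p = 0.0699), and DESeq2 (adjusted p = 0.0018) and limma-voom (0.0214) called it higher. Among the other neighbours with the most counts, the tissues overlapped for the coatomer gene Copa at 300.2 ± 181 CPM in skin against 391 ± 111 CPM in spleen, and for Arhgap30 at 117 ± 140 and 321 ± 76.5 CPM (SD, n = 4 each).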

How the data were processed

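RNA from iNKT cells of skin (4 libraries) and spleen (4) was sequenced as full-length, strand-unmarked cDNA, per the labels' protocols. The authors deposited expected counts from RSEM, an estimate that splits a read matching several genes among them. RSEM is named in the submitters' processing notes beside FastQC, DESeq2 1.16.1 and the build mm9, without roles. The aligner, annotation release and any filter were not given in the sources used here. Columns were matched to samples by the labels, and 0 columns were left unused.

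Expected counts were rounded. With edgeR 4.0.16 in R 4.3.3, filterByExpr kept 6920 of 22549 genes (11429 had a count), TMM scaled the libraries, and skin was tested against spleen in a robust quasi-likelihood fit without covariates, with Benjamini-Hochberg adjustment over all genes tested and a threshold of 0.05. CPM use the TMM-scaled sizes. SE is the log2 fold change over the square root of F, and 95% intervals use the t distribution. On simulated counts with known changes the fit recovered nearly all 4-fold changes at a small spread between libraries and none at a larger one. The common dispersion of these data, edgeR's measure of that spread, was 2.94, above both simulated settings. Genes that did not pass here may therefore still differ. Alternatives were RLE and upper-quartile scaling, no filter, 5 CPM in 4 libraries, DESeq2 1.42.0, limma-voom (limma 3.58.1), rounding down, the replicate number as a block and each library left out. Each pair of libraries differed far beyond sampling noise (chi-square per degree of freedom of at least 112). Lengths came from GENCODE M21 and promoters from RefSeq, both GRCm38.

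The members and lists were chosen with earlier results of these data known. The genes named were the 8 members, the kinases, adaptors, phosphatases and ligand fixed in the signalling list, every signalling or neighbour gene called, the 4 neighbours with the most CPM, and the 3 genes most correlated with Sh2d1a and with each member called. The motifs, Dok2, Cd3d and Cd3g were added after the values were seen. The result for 1 neighbour is not reported here.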

Additional observations from a re-analysis of the deposited data

Results flagged for a closer look

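Single libraries stood apart from the other 3 of their tissue in 6 of the 33 groups of 4 examined by Dixon's ratio of the gap to the whole range. Chance passes this ratio in about 1 of 20 groups of continuous values, a rate that does not hold for the 4 skin groups here, whose other 3 values are 0. In skin these were Sh2d1a at 101 CPM in replicate 1, Slamf1 at 11.8 CPM in replicate 2, Ly9 at 14.3 CPM in replicate 3 and Ptpn11 at 3.18 CPM in replicate 3, each with no count in the other skin libraries. In spleen they were Slamf6 at 79.4 CPM in replicate 2, below the others, and Prkcq at 523 CPM in replicate 4, above the others.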

How the results depend on the processing

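Skin levels of these genes rest on 0 to 4 libraries with a count, and 3 counts correspond to 0.292 to 0.454 CPM. All 6 tested members stayed below 0 on the log2 scale under each alternative run. All but Cd48 passed the filter on their spleen libraries, and each run used the same counts, so this supports no direction. With 1 library left out, SLAM members lower in skin numbered 0 to 2, signalling genes lower 0 to 2, neighbours lower 0, all genes higher 47 to 102 and all genes lower 17 to 111. DESeq2 gave 295 genes higher and 447 lower, and limma-voom 209 and 519, and each gave 1 neighbour higher. By limma-voom 2 members and 0 signalling genes were lower. Without the filter, 48 genes and 0 neighbours were lower.

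With the replicate number as a block, 36 genes were higher and 14 lower, and 0 members, 0 signalling genes and 0 neighbours were lower. The numbers were not shown to pair the libraries: deviations of same-numbered skin and spleen libraries correlated at -0.00031 to 0.014, and 1 of the 4 skin libraries correlated best with its own number.

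Fyn, near 0, changed sign in limma-voom (-0.10), with the block (-0.0075) and in 5 of 8 fits without a library (-0.17 to 0.16). Inpp5d did so in limma-voom (-0.11) and without skin replicate 4, in a range of -0.14 to 0.42 over the 8 fits without a library. The cause of these shifts was not tested, except that fits without a library have fewer samples.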

Other observations

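Profiles most like that of Sh2d1a over the 8 libraries, by Pearson correlation of log2(CPM + 1), were those of the decapping cofactor Edc3, the mitochondrial thymidine kinase Tk2 and Edem2, a gene of endoplasmic reticulum quality control (r = 0.999, 0.998 and 0.998). Each had a count in skin replicate 1 alone among skin libraries, as Sh2d1a did, at 64.6, 144 and 66.9 CPM. Profiles most like that of Slamf6 were those of Pstk, AI462493 and Gins2 (r = 0.9999, 0.999 and 0.999), none with a count in skin. Such correlations follow which libraries had a count: 120 tested genes reached r above 0.9 with Sh2d1a and 354 with Slamf6.

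By longest transcript in place of coding length, a choice made after the data were seen, Cd48 stood ahead of Sh2d1a in spleen, and Ly9 ahead of Slamf1 in skin. The overlap of the members' ranges and the shares of Cd48 were not worked out on that scale.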
